A study of Mus musculus with 4 samples.

Results

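Cytochrome P450 genes of families 1, 2 and 4 were followed in the small intestinal epithelium of mice with a mutant or a wild-type form of D-amino acid oxidase (DAO). The members were taken by name: array probes whose gene name begins with Cyp1, Cyp2 or Cyp4 followed by a subfamily letter and a number. This gave 74 genes read by 102 probes, of 37325 genes and 56605 probes on the array, and 22 of the genes had several probes. They comprise 3 genes of family 1, 49 of family 2 and 22 of family 4. Among them are 4 entries named as pseudogenes (Cyp2c53-ps, Cyp2d37-ps, Cyp4b1-ps2 and Cyp4f41-ps) and 1 named as an antisense transcript (Cyp4x1os), and Cyp2c44 is called Cyp2c23 in RefSeq.

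The 4 groups were G181R jejunum, wild-type jejunum, G181R ileum and wild-type ileum. G181R mice carried DAO G181R on both gene copies, and wild-type mice carried DAO wt/wt. All were Tcrbd-/-, lacking the beta and delta T cell receptor genes in both arms, on a C57BL/6J background and 9 weeks old. The epithelium was scraped off mechanically, RNA of 5 mice was pooled for each group, and each pool was labelled from 100 ng of RNA and hybridised to 1 array. No group had a second array, so no difference could be tested against the spread between mice. The error given with a difference (±) is the error that the scanner software estimates for the spots of the 2 arrays. For bright probes this error sits at its lower limit of 0.20 on the log2 scale. A fold given as "at least" takes no account of this error, so the true fold could be smaller.

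P450 enzymes are haem proteins of the endoplasmic reticulum that insert 1 oxygen atom into a substrate, using electrons that NADPH-cytochrome P450 reductase delivers. Families 1 and 2 oxidise drugs, plant compounds and pollutants, and several members also turn arachidonic acid into epoxides. Family 4 hydroxylates the far end of fatty acids and eicosanoids. In the small intestine, enterocytes carry these enzymes at the surface that food first meets. The receptors AhR, PXR, CAR and PPARα switch on Cyp1, Cyp2b and Cyp2c, and Cyp4a genes when their ligands arrive.

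The upstream sequences of 4 members are shown because these genes carried the results: Cyp2c55 and Cyp2d26 were lower in G181R ileum, and Cyp2b10 and Cyp1a1 had far less signal in ileum than in jejunum of either genotype. The bases are the 250 before the RefSeq transcript start (GRCm38.p6), 5′ to 3′ on the gene's strand. Capitals mark TATAAA, the TATA box, AGGTCA, the half-site of nuclear receptors, or GCGTG, the core of the AhR element, each on either strand.
Cyp2c55 promoter, chr19:39006769-39007018, + strand: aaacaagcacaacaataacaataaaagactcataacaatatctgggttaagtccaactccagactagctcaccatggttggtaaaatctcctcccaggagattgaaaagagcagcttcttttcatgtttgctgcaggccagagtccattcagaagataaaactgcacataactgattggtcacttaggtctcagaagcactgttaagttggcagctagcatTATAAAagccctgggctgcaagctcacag
Cyp2d26 promoter, chr15:82794246-82794495, - strand: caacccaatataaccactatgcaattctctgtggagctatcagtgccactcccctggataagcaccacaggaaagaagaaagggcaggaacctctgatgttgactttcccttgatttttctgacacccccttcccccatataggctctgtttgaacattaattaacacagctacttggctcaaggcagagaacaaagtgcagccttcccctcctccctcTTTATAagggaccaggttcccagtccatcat
Cyp2b10 promoter, chr7:25897408-25897657, + strand: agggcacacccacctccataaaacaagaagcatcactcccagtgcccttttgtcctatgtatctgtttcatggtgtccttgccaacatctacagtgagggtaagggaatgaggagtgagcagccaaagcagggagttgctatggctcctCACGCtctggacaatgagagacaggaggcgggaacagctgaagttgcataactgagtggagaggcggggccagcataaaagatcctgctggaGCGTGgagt
Cyp1a1 promoter, chr9:57697363-57697612, + strand: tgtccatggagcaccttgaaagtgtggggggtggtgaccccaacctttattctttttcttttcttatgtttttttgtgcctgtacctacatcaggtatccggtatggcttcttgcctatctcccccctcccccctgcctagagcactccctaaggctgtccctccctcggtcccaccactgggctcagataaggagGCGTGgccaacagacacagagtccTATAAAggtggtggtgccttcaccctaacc
A TATAAA began 29 bases before the start of Cyp2c55 and 30 bases before that of Cyp1a1. In Cyp2d26 the same motif lay on the opposite strand, 31 bases before the start. Cyp2b10 held GCGTG 9 bases before the start, and on the opposite strand 101 bases before it. RefSeq windows were found for 55 of the 74 members. TATAAA stood in 20 of these, or 36.4%, against 12.4% of all 32851 windows of this length. AGGTCA stood in 11, or 20.0%, against 14.0% of all windows, and GCGTG in 11, or 20.0%, against 28.2%. The shares are not strictly alike: a member counted if any of its windows held the motif, while the other share is over single windows. None of the 3 motifs contains another, and a match is only a match of letters.

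The genes Cyp2c55, Cyp2d26 and Cyp2b10 were each read by 2 probes at different places in the transcript. Their second probes, 60 bases each with mm9 positions, are shown because they read another stretch of the same transcript. How near they came to the first probes differed between the genes.
Cyp2c55 second probe, chr19:39110063-39110122: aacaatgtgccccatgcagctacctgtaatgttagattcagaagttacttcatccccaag
Cyp2d26 second probe, chr15:82621770-82621829: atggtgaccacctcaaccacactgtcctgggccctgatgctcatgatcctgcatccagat
Cyp2b10 second probe, chr7:26702056-26702115: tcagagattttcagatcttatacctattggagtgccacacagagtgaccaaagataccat

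Signal is the background-subtracted brightness of a probe in arbitrary units, and differences are log2 values after subtracting each array's 75th percentile. The probe with the highest mean log2 signal over the 4 arrays stood for its gene, and levels are not compared between genes. Of the 74 members, 41 were well above background with any probe on all 4 arrays, 5 on 3 arrays, 4 on 2, 10 on 1, and 14 on none. Those on none include Cyp1a2, all but Cyp4a31, Cyp4a10, Cyp4a12b and Cyp4a29 among the Cyp4a genes, and the liver-type genes Cyp2c50 and Cyp2c54. By array, 52 members were above background in G181R jejunum, 49 in wild-type jejunum, 49 in G181R ileum and 47 in wild-type ileum. All 12 enterocyte markers, among them villin (Vil1) and sucrase-isomaltase (Sis), were above background on every array. Between 57.4% and 60.4% of all probes were too, so presence alone does not test the epithelial label. Markers of other cells were present too: at least 11 of 12 smooth muscle markers and 7 of 7 T cell markers were above background on each array, although the mice lack T cell receptor genes. In a scraped tissue, fewer cells of a type and less RNA per cell cannot be told apart.

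**Figure D1:**
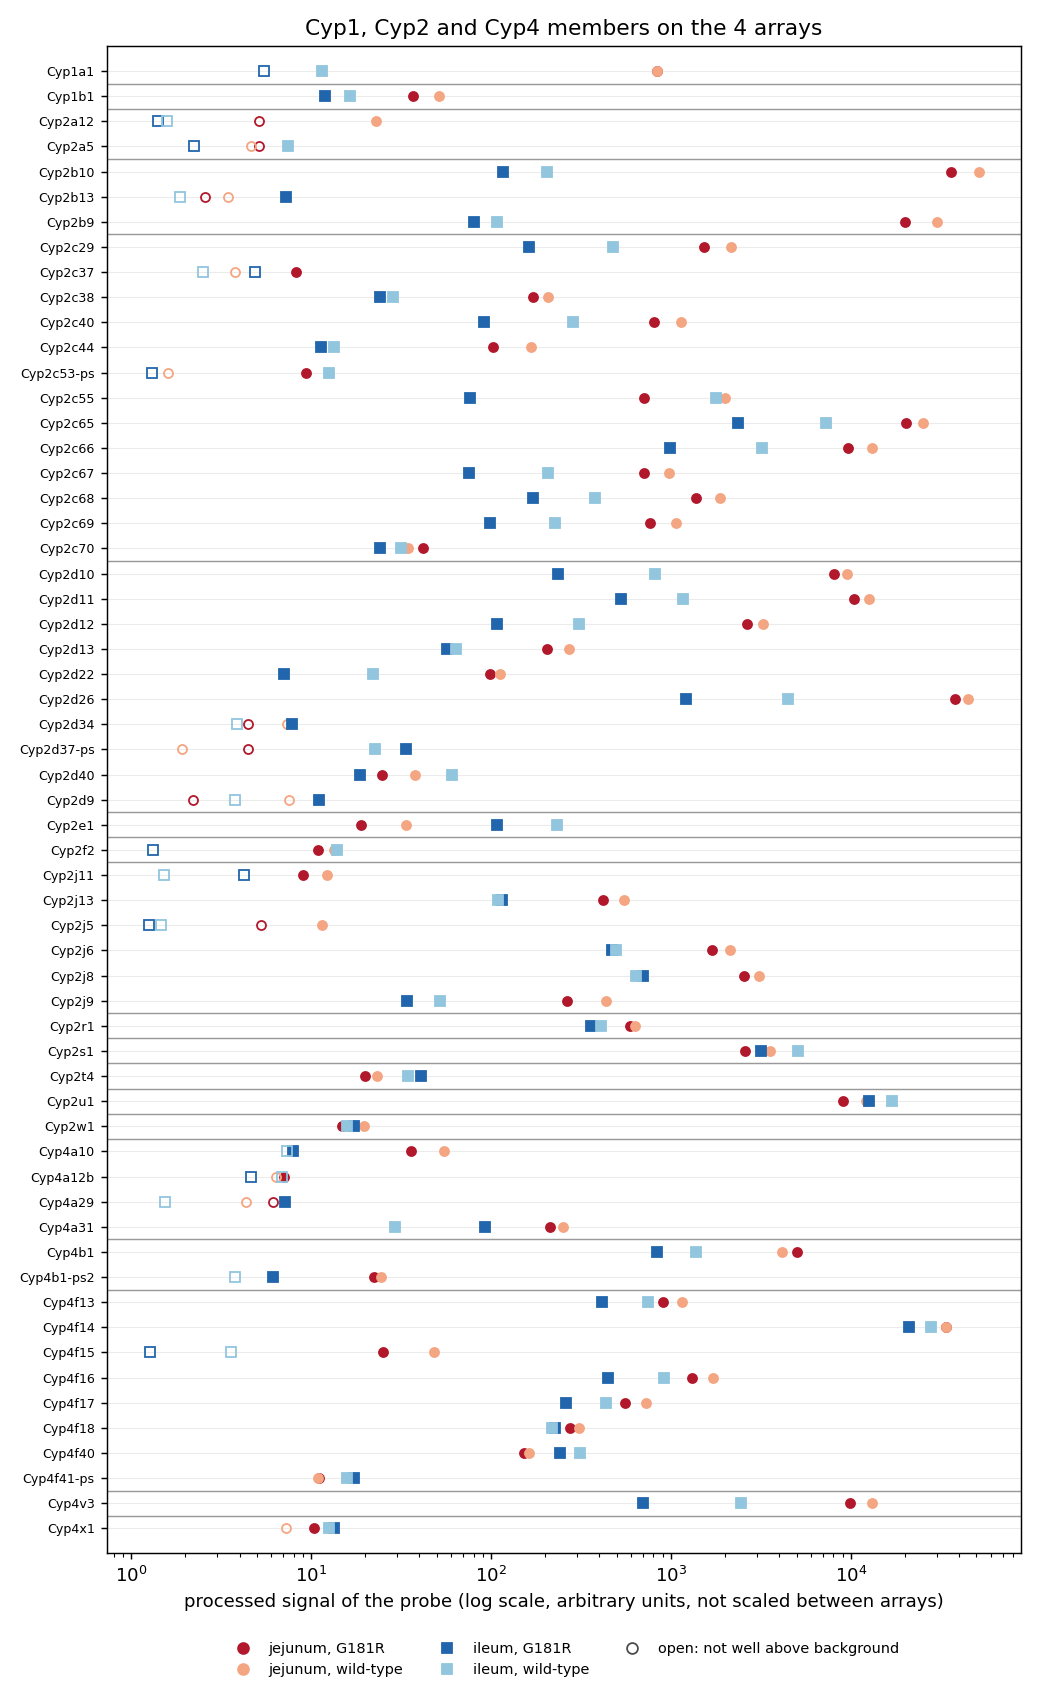
Processed signal of each member whose reported probe was above background on at least 1 array (log scale, arbitrary units), with jejunum as circles, ileum as squares and G181R in the darker colour. Open symbols are not well above background. The ileum squares lie left of the jejunum circles for most members, by the widest margin for Cyp1a1, Cyp2b10 and Cyp2b9, and the dark square of Cyp2c55 (76.3) stands far left of the pale one (1790.3).

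In jejunum most measured members were lower in G181R mice, all but Cyp2c55 by less than 2-fold. Of 47 measured members, meaning those well above background on both arrays, 45 were lower and 2 were higher, where 51.7% of all 21354 measured genes were lower. Their median log2 difference was -0.41, beside -0.01 over all measured genes. A single member, Cyp2c55, was at least 2-fold lower and none was at least 2-fold higher, beside 0.749% and 0.763% of all measured genes. At 1.5-fold, 8 members were lower, beside 4.08% of all genes. The 2 members that were higher were Cyp2c70 at 0.24 ± 0.22 and Cyp4b1 at 0.24 ± 0.20.

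In ileum the differences between genotypes went further in both directions. Of 43 measured members, 33 were lower and 10 higher in G181R mice, where 46.8% of all 21608 measured genes were lower. The median of the members was -0.61, beside 0.03 over all genes. In all, 16 members were at least 2-fold lower, beside 3.21% of all genes, and 1 was at least 2-fold higher, beside 2.0%. At 1.5-fold, 22 members were lower, beside 8.66% of all genes. The 16 comprised 8 Cyp2c genes, 6 Cyp2d genes, Cyp2e1 and Cyp4v3, and the 1 that was higher was Cyp4a31. The other subfamilies with several measured genes, Cyp2b, Cyp2j and Cyp4f, had none past 2-fold in either direction.

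**Figure D2:**
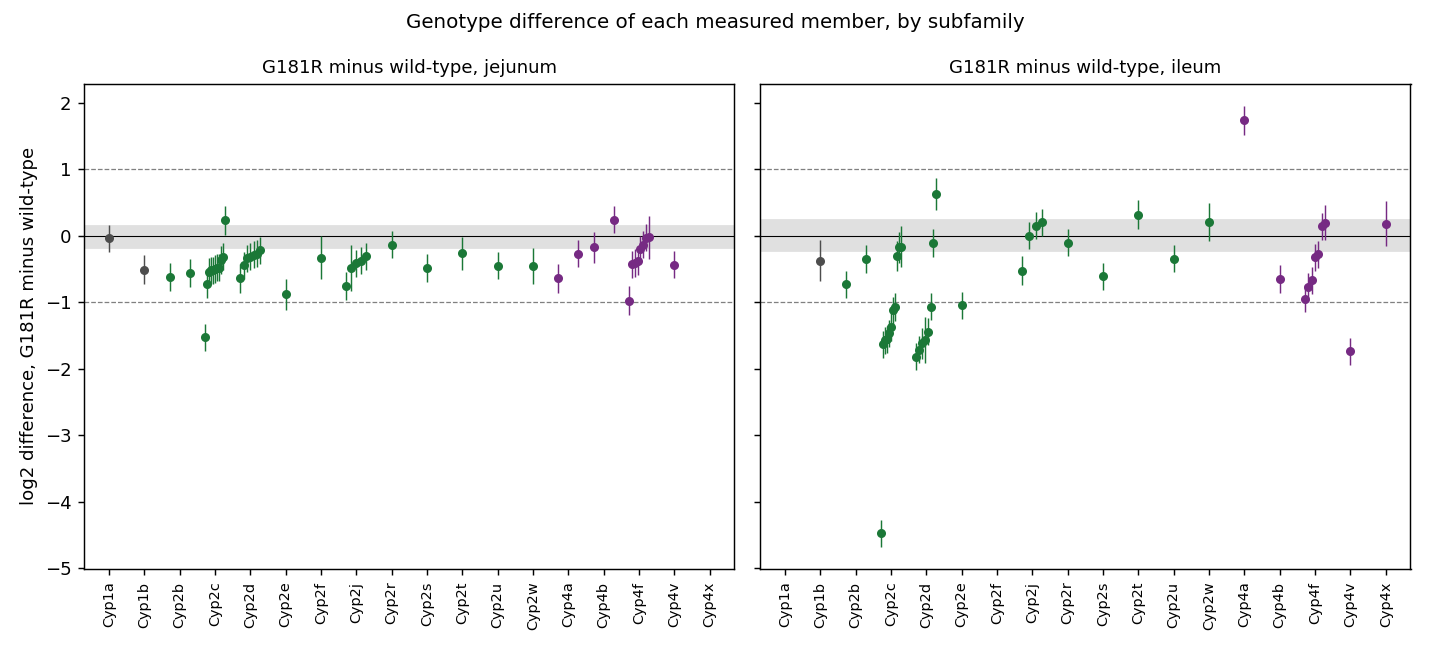
Log2 difference, G181R minus wild-type, of each measured member by subfamily, in jejunum (left) and ileum (right). Bars are the software error, dashed lines mark 2-fold, and the grey band holds the middle 50% of all measured genes. In jejunum 39 of 47 points lie below the band, 6 inside it and 2 above it, while in ileum Cyp2c and Cyp2d genes reach below the lower line and no Cyp2j gene does.

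In family 1 no difference between genotypes measured on both arrays reached 2-fold. Cyp1a1, the AhR target that oxidises polycyclic aromatic hydrocarbons, had a signal of 834 in G181R jejunum and 838 in wild-type jejunum (-0.04 ± 0.20). The ileal signal was 5.44 in G181R mice, not well above background, and 11.4 in wild-type mice, so that it was at least 1.77-fold lower in G181R ileum. Cyp1b1, which shares that receptor and also oxidises oestradiol, read 36.9 in G181R and 51.2 in wild-type jejunum (-0.51 ± 0.22), and 11.96 in G181R and 16.4 in wild-type ileum (-0.38 ± 0.31). The ileal difference of Cyp1b1 turned to 0.02 with another background correction (normexp), and that of Cyp1a1 is known only as a bound. The other 5 AhR targets listed had medians of -0.29 in jejunum and -0.16 in ileum with none past 2-fold, and the lowest was Ugt1a6a at -0.39 and -0.61. Ahr itself stood at -0.07 and -0.18.

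The Cyp2b genes are the classic targets of CAR and the ones that phenobarbital induces in liver. Cyp2b10 had 35849 in G181R jejunum and 51624 in wild-type jejunum, a difference of -0.56 ± 0.20. In ileum it had 116.6 in G181R and 204 in wild-type mice, a difference of -0.73 ± 0.21. The second probe shown above gave -0.64 in jejunum. In ileum it read 3.32 in G181R mice, below the background limit, and 11.9 in wild-type mice. Cyp2b9 had 19981 in G181R and 30002 in wild-type jejunum (-0.62 ± 0.20), and 80.7 in G181R and 108.2 in wild-type ileum (-0.35 ± 0.21). By these probes both genes were lower in G181R mice by less than 2-fold in either tissue, but averaging both Cyp2b10 probes gave -1.24 in ileum. The file annotation of the Cyp2b9 probe also lists Cyp2b10, so the pair is not 2 separate readings. Of the other 3 Cyp2b genes, Cyp2b13 was above background on 1 array, G181R ileum, and Cyp2b23 on none. Of 3 Cyp2b19 probes 1 was above background on 1 array, with 7.43 in G181R jejunum.

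Cyp2c held the member that differed most. Cyp2c55, which in mice makes the 19-hydroxy product of arachidonic acid and is induced through CAR and PXR, had a signal of 709.7 in G181R jejunum and 1997 in wild-type jejunum. In ileum it had 76.3 in G181R mice and 1790.3 in wild-type mice. It was 2.88-fold lower in G181R jejunum (-1.53 ± 0.20) and 22.2-fold lower in G181R ileum (-4.48 ± 0.21). The second probe read 245.8 in G181R and 645.0 in wild-type jejunum, and 29.0 in G181R and 636.3 in wild-type ileum. Its differences were -1.43 and -4.38, each about 0.10 from the first probe's. The ileal difference minus the jejunal one was -2.95 on the log2 scale, a gap that could not be tested.

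The other lower Cyp2c genes formed a band in ileum. Cyp2c65, whose product epoxidises arachidonic acid, had 2361 in G181R and 7321 in wild-type ileum, and 20191 in G181R and 25367 in wild-type jejunum. It was 1.29-fold lower in G181R jejunum and 2.94-fold lower in G181R ileum (-1.55 ± 0.20). Cyp2c66 had 984 in G181R and 3216 in wild-type ileum (-1.63 ± 0.20). The jejunal signals of that gene were 9601 in G181R and 13101 in wild-type mice (-0.48 ± 0.20). Cyp2c29, an epoxygenase also found in liver, had 162.8 in G181R and 475.7 in wild-type ileum (-1.47 ± 0.20), and 1522 in G181R and 2162 in wild-type jejunum (-0.54 ± 0.20).

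Cyp2c40, whose product attacks arachidonic acid near its far end, had 91.5 in G181R and 287 in wild-type ileum (-1.57 ± 0.21), and 807.6 in G181R and 1132 in wild-type jejunum (-0.52 ± 0.20). Its close relatives Cyp2c67, Cyp2c68 and Cyp2c69 stood at -1.37, -1.07 and -1.12 in ileum. In that tissue Cyp2c67 had 75.9 in G181R and 207 in wild-type mice, Cyp2c68 170.1 in G181R and 377 in wild-type mice, and Cyp2c69 99.3 in G181R and 228 in wild-type mice. In jejunum the 3 lay between -0.52 and -0.48. These readings overlap: the file annotation lists Cyp2c68 for the Cyp2c40 probe, Cyp2c65 for that of Cyp2c66, Cyp2c40 and Cyp2c69 for that of Cyp2c68, and Cyp2c40, Cyp2c67 and Cyp2c68 for that of Cyp2c69. The probes of Cyp2c67 and Cyp2c68 also match at 55 of 59 aligned bases. The 8 lower Cyp2c genes are therefore fewer than 8 separate readings, while the probes of Cyp2c55, Cyp2c65 and Cyp2c29 list no other gene.

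Other measured Cyp2c genes did not reach 2-fold between genotypes. Cyp2c38 stood at -0.31 in jejunum and -0.18 in ileum, and Cyp2c44 at -0.73 and -0.16. Cyp2c70, which in mice makes muricholic bile acids, had 41.7 in G181R and 34.6 in wild-type jejunum, and 24.1 in G181R and 31.5 in wild-type ileum. All 11 measured Cyp2c genes were lower in G181R ileum, with a median of -1.37, and 10 of 11 were lower in G181R jejunum, with a median of -0.50. The remaining 5, Cyp2c37, Cyp2c39, Cyp2c50, Cyp2c53-ps and Cyp2c54, were not measured in either comparison.

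The Cyp2c genes lie together on mouse chromosome 19, with 15 of the 16 members within 1.11 Mb of the mm9 assembly between the probes of Cyp2c55 (chr19:39116674-39116733) and Cyp2c70 (chr19:40227969-40228028). The gene with the largest ileal difference, Cyp2c55, is the first of the cluster, and its neighbours Cyp2c65 and Cyp2c66 follow 51.6 and 92.9 kb apart. The 8 genes at least 2-fold lower were not one unbroken run. Cyp2c38 at -0.18 lies between Cyp2c29 at -1.47 and Cyp2c67 at -1.37. Cyp2c70 closes the cluster at -0.31, and Cyp2c44 lies 3851.6 kb beyond it at -0.16.

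**Figure D3:**
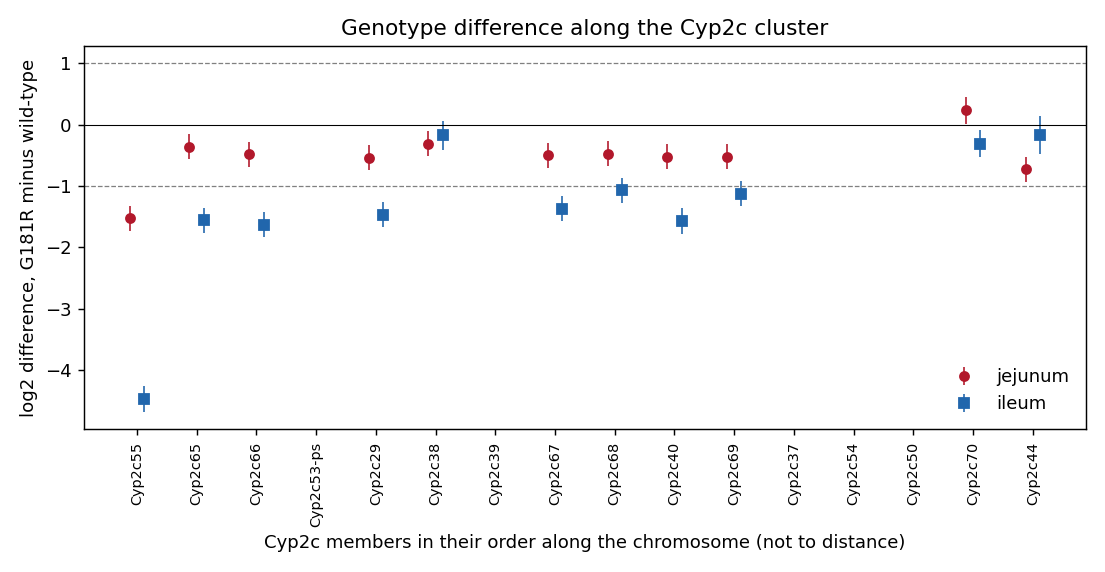
Log2 difference, G181R minus wild-type, of the measured Cyp2c genes in their order along chromosome 19, with jejunum as circles and ileum as squares. Bars are the software error, and names without a point were not above background on both arrays. Ileum squares lie below the jejunum circles from Cyp2c55 to Cyp2c69 except at Cyp2c38, and Cyp2c55 stands alone at -4.48.

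The Cyp2d genes, mouse relatives of the human drug-metabolising CYP2D6, were mostly lower in G181R ileum, 6 of 8 by at least 2-fold. Cyp2d26 had 1212 in G181R and 4504 in wild-type ileum, a difference of -1.82 ± 0.20, and 37882 in G181R and 44584 in wild-type jejunum, a difference of -0.27 ± 0.20. The second probe shown above gave -1.30 in ileum and -0.31 in jejunum. Cyp2d10 had 234.7 in G181R and 812.7 in wild-type ileum (-1.71 ± 0.20), and 8047 in G181R and 9559 in wild-type jejunum (-0.28 ± 0.20). Cyp2d12 had 107.4 in G181R and 308 in wild-type ileum (-1.44 ± 0.21), and 2639 in G181R and 3255 in wild-type jejunum (-0.34 ± 0.20). In all 3 the ileal difference was past 2-fold and the jejunal one did not reach 1.5-fold.

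Cyp2d11 had 525.6 in G181R and 1162 in wild-type ileum (-1.07 ± 0.20), and 10398 in G181R and 12632 in wild-type jejunum (-0.31 ± 0.20). Cyp2d22 and Cyp2d40 were also lower, but from dim probes. Cyp2d22 had 7.06 in G181R and 22.1 in wild-type ileum (-1.57 ± 0.35), and 99.1 in G181R and 112.7 in wild-type jejunum (-0.22 ± 0.21). Cyp2d40 had 18.6 in G181R and 60.3 in wild-type ileum (-1.62 ± 0.23), and 24.9 in G181R and 37.9 in wild-type jejunum (-0.64 ± 0.22). A second Cyp2d40 probe was above background on no array, and averaging both gave -0.25 in ileum. With normexp, those 2 ileal differences shrank to -0.25 and -0.62.

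In the same cluster on chromosome 15, Cyp2d13 did not differ beyond its error in ileum, with 56.6 in G181R and 64.0 in wild-type mice (-0.10 ± 0.21). The pseudogene entry Cyp2d37-ps was higher, with 33.5 in G181R and 22.8 in wild-type ileum (0.64 ± 0.24), and was not above background in jejunum. Cyp2d9 and Cyp2d34 were above background in G181R ileum alone. Of 8 measured Cyp2d genes in ileum, 7 were lower with a median of -1.50 over the 8, and all 7 measured in jejunum were lower with a median of -0.31.

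Cyp2j genes, another set of arachidonic acid epoxygenases, had no measured member past 2-fold between genotypes. Cyp2j8 had 702 in G181R and 643.2 in wild-type ileum (0.20 ± 0.20), and 2561 in G181R and 3096 in wild-type jejunum (-0.31 ± 0.20). Cyp2j6 had 471.2 in G181R and 496.4 in wild-type ileum, which is 0.00 ± 0.20 after normalization, and -0.38 in jejunum. Cyp2j13 stood at 0.15 and Cyp2j9 at -0.52 in ileum, with -0.41 and -0.75 in jejunum. Their median was 0.08 over 4 genes in ileum and -0.41 over 5 in jejunum, so the jejunal value was close to that of Cyp2c (-0.50) and the ileal one was not (-1.37). No test of this difference between subfamilies was possible with 1 array per group. Cyp2j5 had 5.26 in G181R jejunum, not well above background, and 11.47 in wild-type jejunum, so that it was at least 2.01-fold lower in G181R jejunum, and it was not above background in ileum.

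Among the subfamilies with 1 gene, Cyp2e1, which oxidises ethanol and small solvents, had 107.5 in G181R and 233.8 in wild-type ileum (-1.04 ± 0.21). In jejunum its probe had 18.8 in G181R and 33.8 in wild-type mice (-0.88 ± 0.23). A second Cyp2e1 probe agreed in ileum, with 25.5 in G181R and 50.9 in wild-type mice (-0.92). In jejunum the second probe gave the opposite picture, with 48.4 in G181R mice and 4.64, below the background limit, in wild-type mice. The jejunal direction of Cyp2e1 therefore rests on the choice of probe.

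By their reported probes, Cyp2r1, Cyp2s1 and Cyp2u1 were lower in G181R mice by less than 2-fold in both tissues. The differences of Cyp2r1 were within its error. Cyp2r1, the vitamin D 25-hydroxylase, had 591.3 in G181R and 634.1 in wild-type jejunum (-0.13 ± 0.20), and 360.2 in G181R and 408 in wild-type ileum (-0.10 ± 0.20). Cyp2s1, an epithelial P450 found mainly outside the liver, had 2598 in G181R and 3549 in wild-type jejunum (-0.48 ± 0.20), and 3168 in G181R and 5092 in wild-type ileum (-0.61 ± 0.20). Cyp2u1, a hydroxylase of long-chain fatty acids, had 9064 in G181R and 12115 in wild-type jejunum (-0.45 ± 0.20), and 12652 in G181R and 16971 in wild-type ileum (-0.35 ± 0.20). The other 2 Cyp2u1 probes read between 17.9 and 33.2 on the 4 arrays and gave 0.12 and 0.06 in jejunum, so the high signal belongs to 1 probe made from another transcript model.

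Cyp2t4 and Cyp2w1 had low signals and small differences. Cyp2t4 had 19.9 in G181R and 23.3 in wild-type jejunum (-0.26 ± 0.25), and 41.0 in G181R and 34.6 in wild-type ileum (0.32 ± 0.22). Cyp2w1 had 14.8 in G181R and 19.8 in wild-type jejunum (-0.45 ± 0.27), and 17.2 in G181R and 15.8 in wild-type ileum (0.21 ± 0.28). The direction of Cyp2w1 turned in both tissues when all its probes were averaged or another background correction was used.

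Cyp2f2, which activates naphthalene in mouse airway cells, had 10.9 in G181R and 13.4 in wild-type jejunum (-0.33 ± 0.32). In ileum it had 1.33 in G181R mice, not well above background, and 13.9 in wild-type mice, so that it was at least 2.16-fold lower in G181R ileum. Cyp2g1 and 2 of the 4 Cyp2a genes were above background on no array. Cyp2a12 was above background on 1, with 5.10 in G181R jejunum, not well above background, and 22.8 in wild-type jejunum, so that it was at least 4.01-fold lower in G181R jejunum. Cyp2a4 read between 2.14 and 7.26 on the 4 arrays and was never above background.

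In family 4, Cyp4a31 was the 1 member at least 2-fold higher in G181R ileum, where 4 of 11 measured members were higher. This relative of the fatty acid ω-hydroxylases had 93.0 in G181R and 29.3 in wild-type ileum, 3.34-fold higher (1.74 ± 0.22), and 213 in G181R and 250.4 in wild-type jejunum (-0.27 ± 0.20). The ileal difference was under 2-fold with normexp (0.92) and with both Cyp4a31 probes averaged (0.78). The second probe had 8.86 in G181R and 9.91 in wild-type jejunum, and was not well above background in ileum of either genotype. Cyp4a10, a standard PPARα target, had 35.8 in G181R and 54.5 in wild-type jejunum (-0.64 ± 0.22), and 7.93 in G181R and 7.34, not well above background, in wild-type ileum. Another Cyp4a10 probe was brighter in jejunum, with 84.8 in G181R and 108.3 in wild-type mice (-0.39), and was not above background in ileum. The file annotation of every Cyp4a10 probe also lists Cyp4a32, and that of the second Cyp4a31 probe lists Cyp4a10. Cyp4a14, the other standard PPARα target of the group, was above background on no array.

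Cyp4v3, the mouse counterpart of the human fatty acid hydroxylase CYP4V2, was also lower in G181R ileum. Its signal was 701.4 in G181R and 2463 in wild-type ileum, 3.33-fold lower (-1.73 ± 0.20). In jejunum it was 9897 in G181R and 13076 in wild-type mice (-0.44 ± 0.20). Cyp4b1, known for activating the lung toxin ipomeanol, had 835.9 in G181R and 1383 in wild-type ileum (-0.65 ± 0.20), and 5008 in G181R and 4141 in wild-type jejunum (0.24 ± 0.20). Its direction thus differed between tissues, within 2-fold in both. Cyp4x1 was above background in ileum of both genotypes, with 13.5 in G181R and 12.5 in wild-type mice (0.18 ± 0.34), and in G181R jejunum, with 10.4 against 7.24, not well above background, in wild-type jejunum.

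The Cyp4f genes, which inactivate leukotriene B4 and oxidise vitamin E, stayed within 2-fold. Cyp4f14 had 33995 in G181R and 33847 in wild-type jejunum (-0.03 ± 0.20), and 20995 in G181R and 27763 in wild-type ileum (-0.33 ± 0.20). In ileum the range over 7 measured Cyp4f genes ran from -0.94 for Cyp4f16 to 0.20 for Cyp4f41-ps, with 5 lower and a median of -0.33. In jejunum 8 of 8 were lower, from -0.98 for Cyp4f15 to -0.02 for Cyp4f41-ps, with a median of -0.29. For Cyp4f16 and Cyp4f13, second probes gave ileal differences of -0.81 and -0.74, beside -0.94 and -0.76 by the reported probes.

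Most members had less signal in ileum than in jejunum in both genotypes. In G181R mice 44 members were measured in both tissues and 36 were lower in ileum, 31 of them at least 2-fold, beside 52.0% and 8.73% of all measured genes. In wild-type mice 43 were measured and 36 were lower in ileum, 27 at least 2-fold, beside 53.4% and 9.11% of all genes. The members' medians were -2.00 in G181R and -2.27 in wild-type mice, against -0.03 and -0.05 over all genes. In each genotype 1 member, Cyp2e1, was at least 2-fold higher in ileum, beside 7.30% of all genes in G181R and 7.42% in wild-type mice. Lower ileal signal was not particular to the members. Of 12 enterocyte markers 10 were lower in each genotype, 6 at least 2-fold, with medians of -1.01 in G181R and -0.78 in wild-type mice. At least 2-fold lower were also 8 of 8 Cyp3a genes in G181R and 7 of 8 in wild-type mice. Adipocyte markers went the other way, with medians of 1.73 and 2.71.

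Among the measured members the tissue difference was largest for Cyp2b10, Cyp2b9 and Cyp1a1, targets of CAR and AhR. By the signals given above, the ileal level of Cyp2b10 was 337-fold below the jejunal one in G181R mice (-8.40 ± 0.21) and 299.5-fold lower in wild-type mice (-8.23 ± 0.20). Cyp2b9 stood at -8.09 ± 0.21 in G181R and -8.36 ± 0.21 in wild-type mice. Cyp1a1 was at least 149.8-fold lower in G181R ileum and 86.9-fold lower in wild-type ileum (-6.44 ± 0.28). The tissue gap of these 3 genes was far larger than any difference between genotypes among the members. Of 12 listed receptors, 9 were lower in ileum than in jejunum in each genotype, 4 at least 2-fold. The CAR gene Nr1i3 stood at -3.51 in G181R and -3.34 in wild-type mice. The AhR gene Ahr was at -1.13 and -1.02, and the PXR gene Nr1i2 at -1.06 and -1.10. The 5 listed AhR targets that are not P450 genes had medians of -0.22 in G181R and -0.40 in wild-type mice. Whether receptor levels had a part in the tissue gap was not tested.

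Cyp2d genes came next by subfamily median, with -4.44 in G181R and -3.55 in wild-type mice. Cyp2d10 stood at -5.23 in G181R and -3.80 in wild-type mice, Cyp2d26 at -5.10 and -3.55, Cyp2d12 at -4.75 and -3.65, and Cyp2d11 at -4.44 and -3.69. The Cyp2c median was -3.27 in G181R and -2.43 in wild-type mice. Of 11 measured Cyp2c genes, 10 were at least 2-fold lower in ileum in G181R mice and 9 in wild-type mice. Cyp2c55 was 10.2-fold lower in ileum of G181R mice (-3.35 ± 0.21) but 1.32-fold lower in wild-type mice (-0.40 ± 0.20). Its wild-type signals in ileum and jejunum were thus near each other, unlike those of its neighbour Cyp2c65, which was 4.10-fold lower in wild-type ileum. Cyp2d40 was close between tissues in both genotypes, at -0.55 ± 0.24 in G181R and 0.43 ± 0.22 in wild-type mice.

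**Figure D4:**
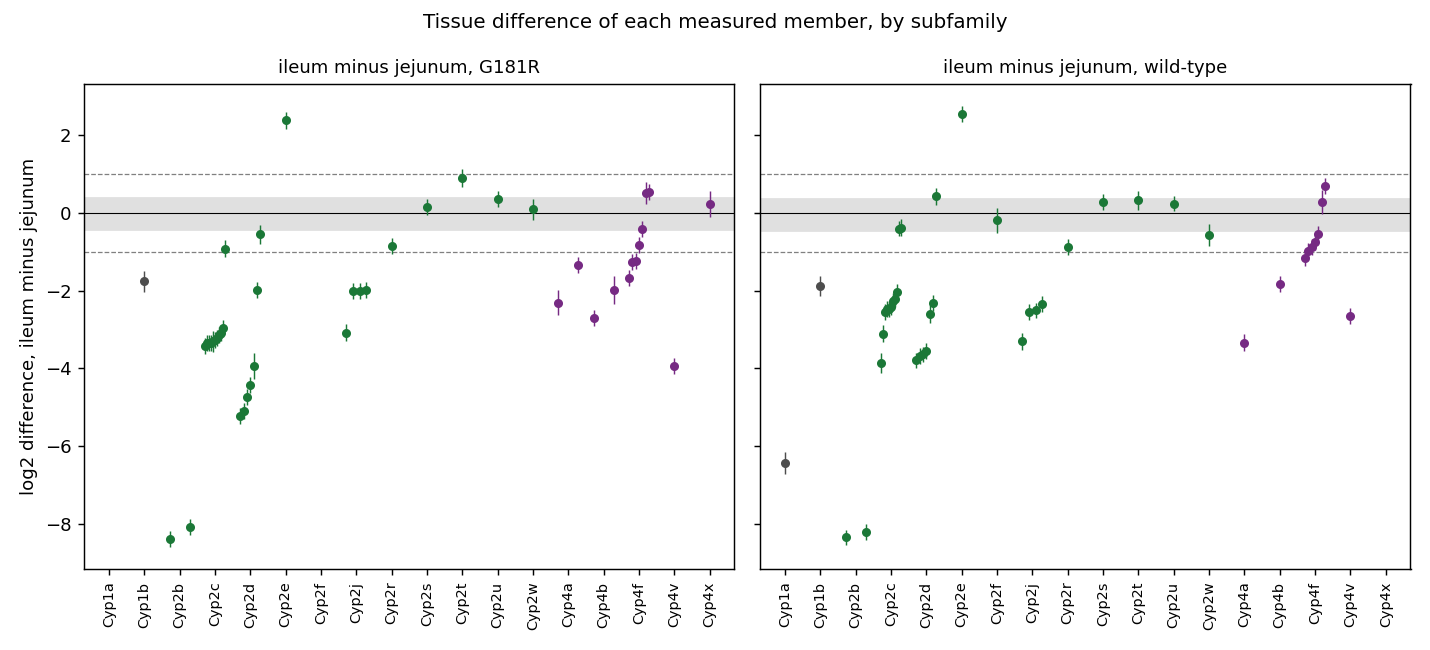
Log2 difference, ileum minus jejunum, of each measured member by subfamily, in G181R (left) and wild-type mice (right). Bars are the software error, dashed lines mark 2-fold, and the grey band holds the middle 50% of all measured genes. Both Cyp2b genes lie lowest in G181R mice (-8.40 and -8.09) and at like values in wild-type mice, Cyp2c and Cyp2d genes lie mostly below the lower dashed line, and Cyp2e1 lies highest (2.38 and 2.55).

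A few members had more signal in ileum. The ileal level of Cyp2e1 was 5.21-fold above the jejunal one in G181R mice (2.38 ± 0.23) and 5.85-fold higher in wild-type mice (2.55 ± 0.22). The second probe gave -1.06 in G181R mice. In wild-type mice that probe was above background in ileum (50.9) but not in jejunum (4.64). Cyp4f40 stood at 0.54 in G181R and 0.69 in wild-type mice, Cyp2t4 at 0.91 and 0.32, Cyp4f41-ps at 0.51 and 0.29, and Cyp2u1 at 0.35 and 0.24. Under other processing the wild-type values of Cyp2t4 and Cyp4f41-ps fell just below 0 (-0.05 for each). In G181R mice the Cyp2u1 value turned to -0.21 with all its probes averaged, where its other probes gave -0.66 and -0.30. Those other probes gave 0.27 and 0.13 in wild-type mice. Cyp2d37-ps, not above background in jejunum, was at least 5.24-fold higher in ileum of G181R and at least 2.61-fold higher in ileum of wild-type mice. For Cyp2j13 the reported probe gave -2.00 in G181R and -2.56 in wild-type mice, whereas a dimmer probe further along the transcript gave 1.07 and 0.62.

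Of the genes that work with the P450 enzymes, the electron donors had 1 of 5 higher and 4 lower in each tissue. Por, the reductase that feeds them electrons, stood at -0.62 in jejunum and -0.59 in ileum, G181R minus wild-type. The 5 electron donor genes had medians of -0.21 and -0.23, with none past 2-fold, and Cyb5r1 was the one higher, at 0.57 and 0.77. Among 12 receptors the medians were -0.01 and -0.12, and Ppara alone passed 2-fold, at -0.58 in jejunum and -1.13 in ileum. The CAR gene Nr1i3 stood at 0.05 and -0.12, and the PXR gene Nr1i2 at -0.01 and 0.04.

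Known targets of these receptors outside the 3 families were partly lower as well. The measured PXR and CAR targets had medians of -0.57 in jejunum and -1.28 in ileum, and 5 of 7 were at least 2-fold lower in G181R ileum, against none in jejunum. The efflux pumps Abcc2 at -2.18 and Abcb1a at -2.02 were the lowest of them in ileum. PPARα targets had medians of -0.13 and -0.67 over 12 genes, of which 2 in jejunum and 5 in ileum were at least 2-fold lower. The largest among them were the lipase inhibitor Angptl4 at -1.50 in jejunum and -3.13 in ileum and the kinase Pdk4 at -2.02 and -2.63. The 8 Cyp3a genes, another xenobiotic P450 family, had medians of -0.81 and -3.20, with none in jejunum and 7 in ileum at least 2-fold lower. Cyp3a11 is counted among the PXR and CAR targets too. A list of genes that handle epoxides, prostaglandins and leukotrienes had medians of -0.26 over 10 and -0.72 over 8 measured genes. Of these, 9 were lower in jejunum and 8 in ileum. The epoxide hydrolase genes Ephx1 and Ephx2 stood at -1.11 and -0.32 in jejunum and at -0.71 and -0.88 in ileum. The prostaglandin dehydrogenase Hpgd stood at -1.04 in jejunum and -1.37 in ileum.

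**Figure D5:**
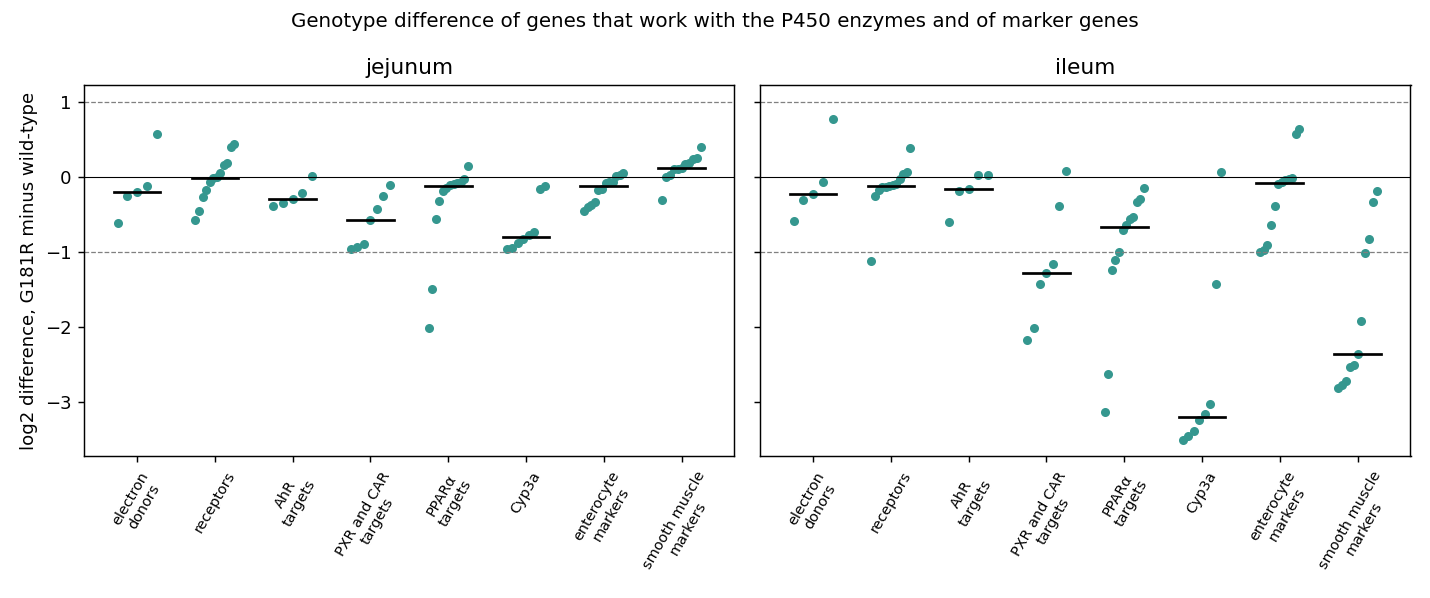
Log2 difference, G181R minus wild-type, of measured genes in lists around the P450 enzymes and of 2 marker lists, in jejunum (left) and ileum (right). Points are genes, black bars are medians and dashed lines mark 2-fold. Cyp3a genes and smooth muscle markers have the lowest medians in ileum (-3.20 and -2.37), and enterocyte markers have a median of -0.08, between -0.999 and 0.64.

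Cell type markers moved with genotype in ileum as well. Enterocyte markers had a median of -0.12 in jejunum and -0.08 in ileum, and none of 12 was past 2-fold between genotypes. In ileum 10 of the 12 were lower, down to -0.999 for Alpi, -0.98 for Apoa1 and -0.91 for Sis, while Lct stood at 0.64 and Apoa4 at 0.57. Smooth muscle markers had a median of 0.12 in jejunum but -2.37 in ileum, where 11 of 11 measured genes were lower in G181R mice and 8 at least 2-fold. Their summed signal was 9482 in G181R and 22590 in wild-type ileum, and 12446 in G181R and 12195 in wild-type jejunum. Adipocyte markers had a median of -1.04 in ileum, with 5 of 8 at least 2-fold lower, and fibroblast markers one of -0.64, with 8 of 8 lower. B cell markers had a median of 0.77, macrophage markers 0.28, endothelial markers -0.17 and T cell markers -0.20, all in ileum. The 4 measured hepatocyte markers had a median of -0.55 there but ranged from -1.68 to 2.62. Of the neutrophil markers S100a9 had 96.8 and S100a8 24.4 in G181R ileum, and neither was above background in wild-type ileum. Ly6g stood at 1.86 in ileum, but Csf3r at 0.08 and Mmp9 at -0.45. In jejunum T cell markers were lower in 7 of 7 (median -0.31), fibroblast markers in 6 of 6 (-0.26) and B cell markers in 4 of 5 (-0.79). The part of muscle or other cells in the P450 differences of either tissue was not tested.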

How the data were processed

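RNA of the 4 pools was labelled with Cy3 and read on Agilent arrays of 1 colour. Per the file headers, the deposited processed signals are intensity values from Agilent Feature Extraction 11.5.1.1, background-subtracted and not scaled between arrays, beside other values, flags of 0 or 1 for outliers and for signal well above background. The authors' deposited matrix is on a log2 scale, with 1 fill value for 2356 probes per array, and served as an alternative alone.

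Control spots were left out, and so were outlier spots unless all spots of the probe on that array were outliers. Only 300 of 56605 probes were printed several times, so an outlier spot of a probe printed once was kept. Spots of a probe were averaged, and each array's 75th percentile was subtracted from the log2 signal (Python 3.11.15, pandas 2.3.3). The probe with the highest mean over the 4 arrays stood for a gene. A gene with its probe above background on 1 array has an "at least" fold, computed against the other array's own signal or lowest signal above background, whichever was higher. The signal of the brighter array entered as read, without its error. The SD of a log2 difference between repeated spots was 0.04 (median over probes). Between 57.4% and 60.4% of probes were above background, and having 1 array per group limits the precision. Alternatives were normexp background correction (limma 3.58.1, offset 50), quantile and median scaling, no background filter, the mean of all probes, the deposited table and a 1.5-fold threshold.

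Members, lists and the naming rule were chosen with earlier results of these data known. The rule names members past 2-fold between genotypes, the brightest of each subfamily and those most different between tissues. Other members named were chosen after their values were seen. Array and group cannot be told apart.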

Additional observations from a re-analysis of the deposited data

How the results depend on the processing

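No paired analysis was possible because each group had 1 array. Quantile scaling, median scaling and the deposited table left every count of members past 2-fold within 1.5 times its value. With normexp, which adds an offset of 50 and so shrinks differences of dim probes, 9 members rather than 16 were at least 2-fold lower in G181R ileum and 0 rather than 1 higher. Cyp2c67 (-0.98), Cyp2c68 (-0.87), Cyp2c69 (-0.83), Cyp2d11 (-0.97), Cyp2d22 (-0.25), Cyp2d40 (-0.62) and Cyp2e1 (-0.80) were those below 2-fold, while Cyp2c55 stood at -3.73 and Cyp4a31 at 0.92. Averaging all probes of a gene gave 0 higher in G181R ileum, 1 higher (Cyp2e1, 1.24) and 2 lower in G181R jejunum, and 0 higher in ileum than jejunum of G181R mice. A 1.5-fold threshold gave 8 lower in G181R jejunum, and 2 higher in G181R ileum, 2 higher in ileum than jejunum of G181R mice and 2 of wild-type mice. Without the background filter, which moved the median of all genes to between -0.27 and -0.07, there were 9 higher in G181R ileum, 5 higher and 7 lower in G181R jejunum, and 5 higher in ileum than jejunum of G181R and 3 of wild-type mice. That setting turned the Cyp4a median between tissues in G181R mice to 0.0616, in place of -1.82. Of 126 differences of named members, 116 had 1 sign under every setting that gave them a value and 10 did not. The deposited table fills the brightest probes of Cyp2d10 and Cyp2d11. Depth sets no limit for bright probes, but members near the background limit have only bounds.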

Other observations

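P450 enzymes of other families make or break down sterols, bile acids, retinoids and vitamin D. Over 9 measured genes of the list the median log2 difference, G181R minus wild-type, was -0.07 in jejunum with none past 2-fold, and -0.23 in ileum with 2 at least 2-fold lower. These 2 were Cyp26b1, which breaks down retinoic acid, at -2.59 in ileum and -0.94 in jejunum, and Cyp27a1, which hydroxylates the cholesterol side chain, at -2.06 and -0.92. Targets of Nrf2, the factor that answers oxidative stress, had medians of 0.00 in jejunum and -0.07 in ileum over 7 measured genes, and 1 was at least 2-fold higher in G181R ileum. Neither list was tested.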
